A study of Mus musculus with 18 samples.

Results

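Loss of Dgcr8 was examined for the pathways and gene families whose messages moved between monosomes and high polysomes in mouse embryonic stem cells (ESCs). The translation level of a gene is the ratio of its high polysome to its monosome level, on a log2 scale. Its change is the translation level in Dgcr8 knockout (KO) cells minus that in wild type (WT) cells, which is the interaction of genotype and fraction. The comparison used the 12 high polysome and monosome libraries of 18 polysome libraries, in 4 groups of 3, and 12851 of 51467 genes in the count table passed the filter on low counts. A total of 93 gene lists, which hold 3091 of the genes tested, were followed, and a gene can stand in more than 1 list.

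WT cells were V6.5 ESCs, and the Dgcr8 KO cells were ESCs of a line made earlier in the same laboratory, so that the genotype comparison rests on 1 KO line. Both were grown with LIF, the 2i inhibitors and serum. All cells received cycloheximide at 100 ug/ml for 2 minutes, and each lysate was spread on a sucrose gradient running from 10% to 50%. High polysomes carried 4 or more ribosomes per message. A gradient is named here by its genotype and number, with 3 gradients for each genotype. Nothing in the sources used here says whether the 3 came from separate cultures. The p-values thus measure the spread between libraries of the same genotype and fraction, which may be technical. Totals of the 12 libraries were 1151649 to 4984833 reads.

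DGCR8 binds primary microRNA transcripts and, together with the nuclease DROSHA, releases the hairpins from which mature microRNAs are cut. Cells that lack it hold no canonical microRNAs. MicroRNAs guide Argonaute proteins to partly complementary sites in 3′ untranslated regions (UTRs), where the bound message is translated less and decays faster. Many of the microRNAs in mouse ESCs come from the miR-290 cluster, whose main members share with the miR-302 family a seed, the bases near the 5′ end that pair with the target.

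The mature microRNAs of these clusters that carry the seed AAGUGCU, in RefSeq on GRCm38.p6, are shown because they depend on DGCR8 and define the sites counted below. The RefSeq set used here held no entry for mmu-miR-302a-3p, so its sequence is not printed. The seed, bases 2 to 8, is in capitals. The first and second lie at chr3:127545275-127545297 and chr3:127545665-127545687, and the others at chr7:3218968-3218989, chr7:3220691-3220712 and chr7:3220815-3220837, all on the plus strand.
mmu-miR-302b-3p: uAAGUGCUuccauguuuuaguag
mmu-miR-302d-3p: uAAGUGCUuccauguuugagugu
mmu-miR-291a-3p: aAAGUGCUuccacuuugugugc
mmu-miR-294-3p: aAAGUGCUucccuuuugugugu
mmu-miR-295-3p: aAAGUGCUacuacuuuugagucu

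Sites for this seed were searched in annotated 3′ UTRs, on the strand of the message, as AGCACTTA, AGCACTT and GCACTTA, where the first contains both of the others. A site of any of these kinds was present in 2168 of 11615 protein-coding genes with a 3′ UTR, or 18.7%. The following sites of the longest form, in capitals, belong to 3 genes called higher and 1 called lower below, and lie at chr4:141328730-141328737, chr10:128489811-128489818, chr1:180938213-180938220 and chr10:96619145-96619152, all on the plus strand.
Epha2: ggacccagctaAGCACTTAgcagtttgcca
Smarcc2: caagtttgaaaAGCACTTAagcacctactt
Lefty1: actgtatgcgaAGCACTTAcatgtatagat
Btg1: gacttttacctAGCACTTAaaatgtataaa

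The targeted gene was measured in every library. In monosomes, Dgcr8 (ENSMUSG00000022718, minus strand of chromosome 16, from 18253948 to 18289246) measured 74.8 ± 5.75 CPM (read counts scaled to the library size) in WT and 50.2 ± 2.58 in KO cells. Its high polysome levels were 27.7 ± 1.76 and 15.4 ± 7.17 CPM (SD, n = 3, as for all levels that follow). Which part of the gene was deleted is not given in the sources used here, so these reads, which come from the 3′ end, do not check the label. Its translation level was -1.52, -1.30 and -1.40 in the WT gradients and -1.65, -1.15 and -2.46 in the KO gradients, which overlap (change -0.45, SE 0.30, adjusted p = 0.284). All 7 ESC markers, stood at 3 CPM or more in every library, and their summed level was 2124 to 3569 CPM. The summed level of 12 fibroblast markers was 15.1 to 54.0 CPM. In WT cells it was 24.8 to 30.8 CPM in monosomes and 26.1 to 37.4 in high polysomes, and in KO cells 15.1 to 19.2 and 34.8 to 54.0 CPM. Of these 12 markers, 2 or 3 reached 3 CPM in all libraries of a group, and 2 or 3 were at 0 in all of them. In such bulk fractions, fewer cells of a type and less RNA per cell cannot be told apart.

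Calls required a Benjamini-Hochberg adjusted p from limma below 0.05 and a log2 change beyond 1 in either direction. They took in 15.1% of all genes tested, with 6.29% called higher in KO cells and 8.81% called lower. In 20.3% of the genes, every KO gradient lay above every WT gradient, and in 21.4% every KO gradient lay below. These shares are the background against which the lists are read. Changes are relative to all genes. Plain library totals in place of the TMM factors (trimmed mean of M values) moved the median of all genes from 0.01 to -0.32, and shifted the list medians by between -0.32 and -0.34, so that 25 of the 59 lists with a median above 0 then had one below 0.

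Across the 93 lists, all 3 gradients of a genotype often lay together. In 33 lists the medians of all 3 KO gradients lay above those of all 3 WT gradients, in 24 they lay below, and in 36 they overlapped. Members were called only higher in 25 lists and only lower in 17, in both directions in 44 and not at all in 7. The lists at the upper end hold secreted and cell surface proteins, transporters, large cytoskeletal linkers and central carbon enzymes. Those at the lower end hold histones, ubiquitin-conjugating enzymes, small nuclear ribonucleoproteins, small GTPases and the nuclear-encoded parts of the mitochondrial ribosome and respiratory chain.

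**Figure D1:**
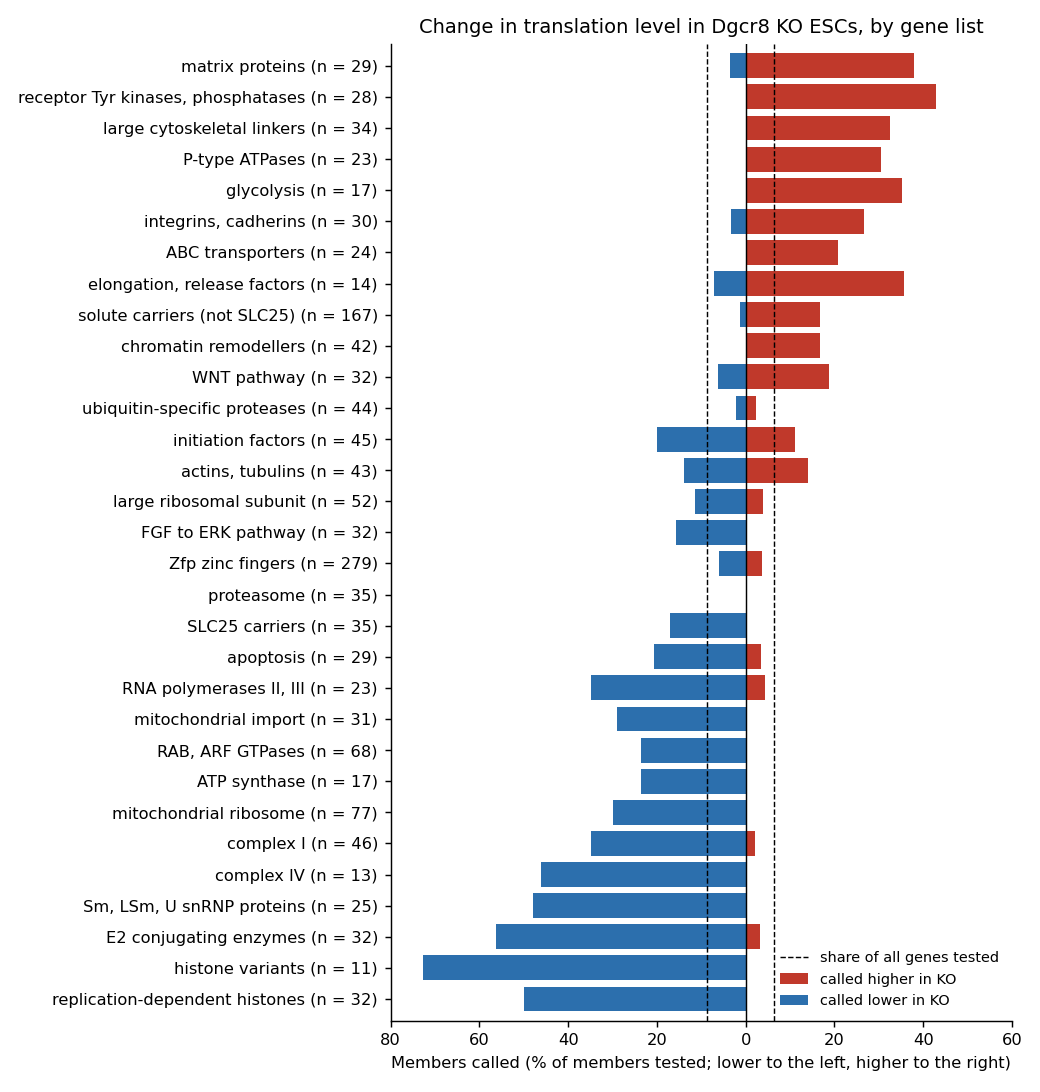
Members of 31 gene lists that were called higher (red, right) or lower (blue, left) in translation level in Dgcr8 KO ESCs, as a percentage of the members tested (n in brackets), with lists ordered by their median change. Dashed lines are the shares among all genes tested, 6.29% higher and 8.81% lower; receptor tyrosine kinases and phosphatases reach 42.9% higher with none lower, and E2 enzymes 56.2% lower.

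The extracellular matrix and the receptors that bind it were among the lists with the largest gains. Of 29 matrix proteins tested, 11 were called higher and 1 lower, and the list's median change was 1.11 against 0.01 for all genes. The median translation level of the list was 0.69, 0.53 and 0.68 in the WT gradients and 1.80, 1.33 and 1.74 in the KO gradients, which do not overlap. Agrn (ENSMUSG00000041936, chromosome 4, 156165290 to 156197488, minus strand) encodes agrin, a heparan sulfate proteoglycan of basement membranes. Its translation level was 0.42, 0.31 and 0.36 in the WT gradients and 2.01, 1.73 and 2.18 in the KO gradients, a change of 1.63 (SE 0.22, adjusted p = 2.19e-07). All KO gradients lay more than 1 log2 unit above the highest WT gradient. Its high polysome level was 222 ± 20.4 CPM in WT and 506 ± 122 in KO cells, beside monosome levels of 172 ± 16.1 and 126 ± 19.8 CPM. Col18a1, a basement membrane collagen whose C-terminal fragment is endostatin, rose by 1.47. The summed fibroblast markers given above, from cells that make matrix, overlapped between genotypes in high polysomes and were lower in KO monosomes, and their part in this result was not tested.

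Of 30 integrins, cadherins and protocadherins, 8 were called higher and 1 lower (median change 0.68). Among 10 integrin subunits alone, 6 were called higher, none lower, and the median was 1.35. Itga3, the alpha subunit of a laminin receptor, had translation levels of 0.73, 0.34 and 0.00 in WT and 2.25, 1.69 and 2.75 in KO gradients (change 1.94, SE 0.36, adjusted p = 7.27e-05). Itgb4, the beta subunit of the hemidesmosome integrin, rose by 1.70 and Itga5, a fibronectin receptor subunit, by 1.53. The list was tested for 30 of its 133 members, since most protocadherins did not pass the filter.

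Receptor tyrosine kinases and receptor phosphatases, which pass signals from growth factors, ephrins and cell contacts, gave the largest share of members called higher among the lists in the plot of shares by list. Of 28 tested, 12 were called higher and none lower, with a median change of 1.03. The list medians were 0.96, 0.86 and 0.91 in WT and 1.70, 1.69 and 1.93 in KO gradients. The EPH receptors for ephrins accounted for 5 of these calls, out of 7 tested. Epha2 (ENSMUSG00000006445, chromosome 4, 141301240 to 141329384, plus strand), whose 3′ UTR holds the first site printed above, stood at 0.38, -0.14 and -0.21 in WT and at 1.98, 1.30 and 2.08 in KO gradients (change 1.81, SE 0.31, adjusted p = 1.82e-05). Its high polysome level was 45.3 ± 14.5 CPM in WT and 164 ± 32.0 CPM in KO cells, beside monosome levels of 43.7 ± 4.11 and 46.7 ± 5.53 CPM. Igf1r, the receptor of insulin-like growth factor 1, rose by 1.44 and Erbb3, a partner of other EGF receptor family members, by 1.29. A seed site was present in 6 of the 27 members with an annotated 3′ UTR (22.2%), and the median change was 1.07 with a site and 1.05 without.

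NOTCH receptors and their ligands, which signal between touching cells, also moved upwards. Of 7 tested, 4 were called higher and none lower (median 1.31), led by the ligand Jag1 at 1.63. Notch1 (ENSMUSG00000026923, chromosome 2, 26457903 to 26516663, minus strand) had translation levels of 0.76, 0.52 and 0.12 in WT and 2.18, 1.63 and 2.19 in KO gradients, a rise of 1.55 (SE 0.23, adjusted p = 1.76e-06). The wider list of Hippo and Notch pathway genes was mixed, with 5 members called higher and 3 lower of 32. The WNT list had 6 called higher and 2 lower of 32, a median of 0.44. Its members that rose include Fzd7, a WNT receptor, by 1.28, Dvl2, which relays the signal from that receptor, by 1.19, and Bcl9l, a co-activator of beta-catenin, by 1.21. Without WT gradient 2, Fzd7 was no longer called (1.06, limma adjusted p = 0.107).

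Transporters formed the broadest group with gains. Of 167 solute carriers outside the mitochondrial SLC25 family, 28 (16.8%) were called higher and 2 lower, and at the adjusted p alone 49 were higher and 4 lower. The list median was 0.31, 0.30 and 0.48 in WT and 0.75, 0.75 and 0.77 in KO gradients, so that the groups do not overlap but lie closer than for the receptors. Slc43a1, an exporter and importer of large neutral amino acids, stood at -0.14, -0.81 and -0.60 in WT and 1.18, 1.43 and 1.06 in KO gradients (change 1.76, SE 0.34, adjusted p = 9.28e-05). Slc23a2, a vitamin C transporter, rose by 1.57, and Slc9a8, a sodium and proton exchanger, by 1.49. The 17 amino acid carriers of the SLC7 and SLC38 families had 3 called higher, none lower, and values between 0.19 and 1.67.

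Other membrane transport families moved in the same direction. P-type ATPases, the pumps that phosphorylate themselves during each cycle, had 7 of 23 called higher and none lower. Atp13a1 (ENSMUSG00000031862, chromosome 8, 69791163 to 69807749, plus strand), an endoplasmic reticulum pump that removes misplaced proteins, had translation levels of -1.37, -1.34 and -1.33 in WT and 0.34, -0.01 and 0.69 in KO gradients (change 1.70, SE 0.20, adjusted p = 2.36e-08). ABC transporters had 5 of 24 called higher and none lower.

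In the cholesterol pathway, opposite calls stood side by side. Srebf2 and Srebf1, the transcription factors that switch on cholesterol and fatty acid genes, rose by 1.32 and 1.29. Insig1, which holds the SREBP proteins in the endoplasmic reticulum, fell: its translation level was 0.23, 0.15 and 0.80 in WT and -0.71, -1.29 and -0.94 in KO gradients (change -1.39, SE 0.27, adjusted p = 0.00013). Of the 25 members tested, 3 were called higher and 2 lower. These are 12% and 8%, beside 6.29% and 8.81% among all genes.

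**Figure D2:**
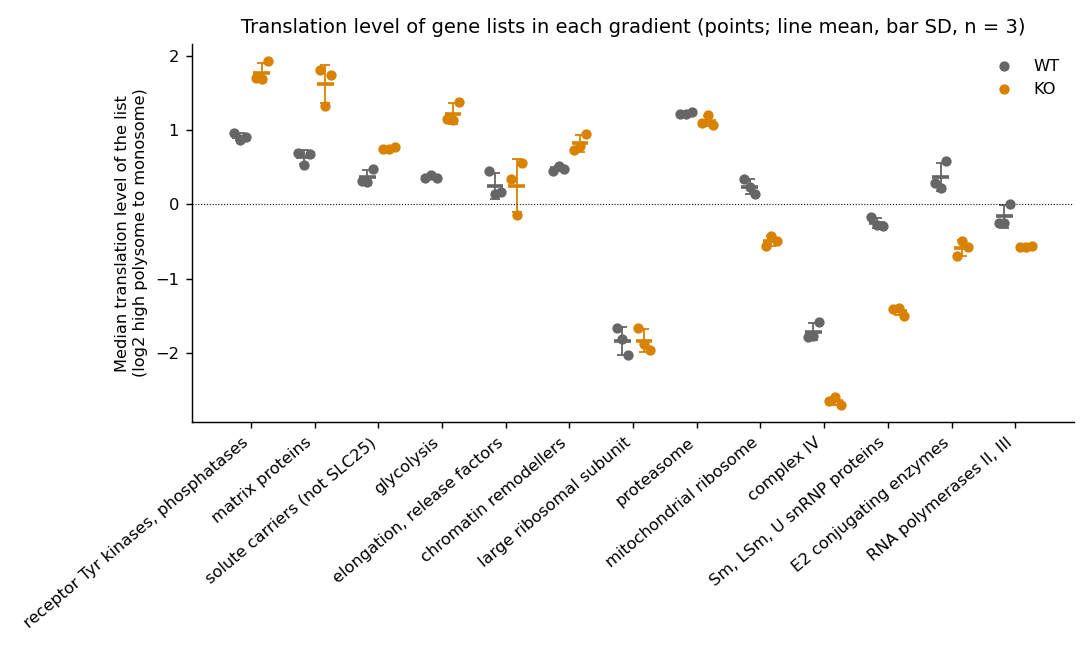
Median translation level of 13 gene lists in each gradient (y axis, log2 of the high polysome to monosome ratio), with WT in grey and Dgcr8 KO in orange; points are gradients, lines the mean and bars the SD (n = 3). KO points lie clear above WT for receptor tyrosine kinases (WT 0.86 to 0.96, KO 1.69 to 1.93) and clear below for the mitochondrial ribosome (WT 0.14 to 0.34, KO -0.55 to -0.42), and overlap for the large ribosomal subunit and the elongation and release factors.

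Calls among nuclear-encoded mitochondrial proteins were mostly lower in the organelle's ribosome, respiratory chain and import machinery. Of 77 mitochondrial ribosomal proteins, which make up the ribosome inside the organelle, 23 (29.9%) were called lower and none higher. At the adjusted p alone, 43 of the 77 were lower and 2 higher, where 15.2% of all genes were lower. The list medians were 0.34, 0.24 and 0.14 in WT and -0.55, -0.42 and -0.50 in KO gradients, without overlap. The large and small subunits gave similar medians, -0.75 over 48 genes and -0.70 over 29 genes, with 14 and 9 called lower. Mrpl36 (ENSMUSG00000021607, chromosome 13, 73328513 to 73332178, plus strand), a large-subunit protein, had translation levels of -0.49, -0.29 and -0.50 in WT and -2.04, -1.89 and -2.35 in KO gradients (change -1.69, SE 0.20, adjusted p = 2.48e-08). Monosome levels were 118 ± 6.55 and 129 ± 18.9 CPM in WT and KO cells, while the high polysome level went from 88.0 ± 6.08 to 29.6 ± 2.82 CPM.

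The respiratory chain showed the same direction in each complex. In complex I, which takes electrons from NADH, 16 of 46 members were called lower and 1 higher, and in complexes II and III, 5 of 17 and none. In complex IV, cytochrome c oxidase, 6 of 13 were called lower, none higher, with a median of -0.96, and in the ATP synthase 4 of 17, none higher. Cox7b (ENSMUSG00000031231, chromosome X, 106015700 to 106022450, plus strand), a small subunit of complex IV, was at -0.45, -0.48 and -0.39 in WT and at -2.53, -2.61 and -2.53 in KO gradients (change -2.12, SE 0.18, adjusted p = 1.84e-11). The distance between the groups was many times their spread. Atp5j, coupling factor 6 of the ATP synthase, went from 1.07, 1.02 and 0.87 in WT to -0.96, -0.99 and -1.39 in KO gradients (change -2.11, SE 0.20, adjusted p = 2.23e-10). Ndufb3 of complex I fell by 1.46 and Uqcrq of complex III by 1.45.

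Protein import into mitochondria followed, with 9 of 31 members called lower and none higher. The small TIM chaperones, which escort membrane proteins between the outer and inner membranes, had 4 of 6 called lower and a median of -1.24. Timm10, one of them, had 0.82, 1.06 and 0.69 in WT and -1.37, -0.73 and -1.21 in KO gradients (change -1.98, SE 0.24, adjusted p = 4.81e-08). Of 35 SLC25 carriers of the inner membrane, 6 were called lower, none higher, beside the 28 of 167 other solute carriers called higher.

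Enzymes of the mitochondrial matrix and of glycolysis did not share this direction. Of 22 enzymes of the tricarboxylic acid cycle, 2 were called higher and none lower (median 0.51), and of 17 mitochondrial aminoacyl-tRNA synthetases 3 were called higher and none lower (median 0.27). Cs (ENSMUSG00000005683, chromosome 10, 128337734 to 128362479, plus strand), citrate synthase, which starts the cycle, had translation levels between -1.08 and -0.52 in WT and of 1.22, 0.85 and 1.21 in KO gradients (change 1.97, SE 0.20, adjusted p = 1.68e-09). Of 17 glycolytic enzymes, 6 (35.3%) were called higher and none lower, and the median change was 0.71, with WT list medians of at most 0.39 and all KO list medians above 1. Gpi1, glucose phosphate isomerase, rose by 1.72, Aldoa, an aldolase, by 1.26 and Hk1, a hexokinase, by 1.24. Tkt, the transketolase of the pentose phosphate pathway, went from 0.62, 0.01 and 0.24 to 2.23, 2.03 and 2.69 (change 2.03, SE 0.19, adjusted p = 3.21e-10). In serine and one-carbon metabolism, 4 of 18 were called higher and none lower, including Shmt2, which passes the carbon of serine to folate, by 1.29, and Mat2a, which makes S-adenosylmethionine, by 1.28. The 7 messages encoded in the mitochondrial genome, whose ribosomes are not those of the cytosol, had a median of 0.79. None was called, though 5 were past the adjusted p on the higher side and none on the lower side.

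The translation machinery itself was split, with calls in both directions. All 4 subunits of eEF1, which brings aminoacyl-tRNA to the ribosome, were called higher (median 1.69). Eef1b2 (ENSMUSG00000025967, chromosome 1, 63176825 to 63180486, plus strand) had translation levels of -2.30, -2.42 and -2.67 in WT and -0.67, -0.32 and -1.02 in KO gradients (change 1.79, SE 0.15, adjusted p = 3.64e-11). Eef2, the translocase, went from -2.68, -3.20 and -2.95 to -1.15, -1.58 and -1.06 (change 1.68, SE 0.18, adjusted p = 2.62e-09). Both messages had negative translation levels in all gradients of both genotypes. Over the whole list of 14 elongation, release and recycling factors, 5 were called higher and 1 lower, and the median change was 0.50, although the medians per gradient overlapped.

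Among 45 initiation factors, 5 were called higher and 9 lower, and the list median was 0.08. The 12 subunits of eIF3, the large scaffold on the small ribosomal subunit, had 3 called higher and none lower, with 8 past the adjusted p, all higher. The eIF1 family, which helps select the start codon, had 4 of 5 called lower, and all 5 were past the adjusted p. Eif1ax (ENSMUSG00000067194, chromosome X, 159372178 to 159389928, plus strand) stood at 1.42, 1.49 and 1.49 in WT and -0.72, -0.31 and -0.49 in KO gradients (change -1.98, SE 0.18, adjusted p = 9.82e-11). Eif4g1, the scaffold that binds the cap-binding protein, moved the other way, from 0.42, 0.23 and 0.00 to 1.61, 1.38 and 1.89 (change 1.42, SE 0.20, adjusted p = 9.37e-07). Eif5a, which relieves stalls at proline stretches and is listed with the initiation factors by name, fell by 1.78. Both poly(A)-binding proteins tested, Pabpc1 and Pabpc4, were called higher, Pabpc1 by 1.44 and Pabpc4 by 1.01, the latter under the fold threshold without WT gradient 2 (0.85) or KO gradient 3 (0.88).

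Cytosolic ribosomal proteins lay near 0 as lists. Of 52 large-subunit proteins, 2 were called higher and 6 lower (median 0.05), and of 31 small-subunit proteins, 2 and 3 (median 0.23). The medians of the large-subunit list were -1.67, -1.82 and -2.03 in WT and -1.66, -1.88 and -1.96 in KO gradients. Their median KO to WT change was -1.17 in monosomes and -1.12 in high polysomes. Counts of these genes are uncertain, since they have near-identical processed pseudogenes and only reads with a single location were kept. Rplp0, a protein of the ribosomal stalk, was called higher by 1.32, and Rps25 lower, from -0.57, -0.65 and -0.53 to -2.19, -1.90 and -1.96 (change -1.44, SE 0.16, adjusted p = 5.73e-09). Of 20 cytosolic aminoacyl-tRNA synthetases, which charge tRNAs, 3 were called higher and none lower, among them Qars, the enzyme for glutamine, by 1.87.

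Calls in protein degradation differed between its steps. Of 32 ubiquitin-conjugating (E2) enzymes, which carry ubiquitin from the activating enzyme to the ligases, 18 (56.2%) were called lower and 1 higher. Medians were 0.29, 0.22 and 0.59 in WT and -0.70, -0.49 and -0.57 in KO gradients, without overlap. Ube2e3 (ENSMUSG00000027011, chromosome 2, 78868124 to 78921293, plus strand) had translation levels of 0.77, 0.82 and 1.22 in WT and -1.04, -0.68 and -0.25 in KO gradients (change -1.58, SE 0.23, adjusted p = 1.16e-06). Ube2d1, which serves many ligases, fell by 1.57. The E2 enzyme called higher was Ube2o, a giant that joins the conjugating and ligating steps in a protein of 1288 residues, with -1.16, -0.78 and -1.07 in WT and 0.58, -0.25 and 0.18 in KO gradients (change 1.19, SE 0.28, adjusted p = 0.000979).

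The ligases and proteases that follow in the pathway had few members called. HECT and other giant ligases had 2 of 29 called higher and none lower (median 0.47), and ubiquitin-specific proteases 1 and 1 of 44 (median 0.27). Of 35 constitutive proteasome subunits none was called, and the list median was -0.22, with WT medians of 1.22, 1.22 and 1.25 and KO medians of 1.09, 1.20 and 1.06, which lie below by a small margin. Small subunits of the anaphase-promoting complex, a ligase of mitosis, did fall. Anapc11, its catalytic RING subunit of 84 residues, went from -0.06, -0.23 and 0.30 to -1.99, -1.94 and -1.75 (change -1.90, SE 0.17, adjusted p = 1.43e-10), and 5 of the 14 subunits tested were called lower. Rbx1, the RING subunit of the cullin ligases, fell by 1.43, while the scaffold Cul7 rose by 1.62.

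Chaperones divided by complex. The 7 subunits tested of TRiC, the barrel that folds actin and tubulin, had values between 0.51 and 0.89, all past the adjusted p and none past the fold threshold. Prefoldin, which hands those proteins to TRiC, had 5 of 6 subunits lower at the adjusted p and 2 called, led by Pfdn6. Its translation level reached up to 1.67 in WT and was -0.80, -0.72 and -0.77 in KO gradients (change -2.18, SE 0.21, adjusted p = 2.39e-10). Hsp90ab1, the constitutive cytosolic HSP90, rose from -0.98, -1.28 and -1.06 to 0.63, 0.28 and 0.90 (change 1.71, SE 0.17, adjusted p = 5.91e-10). Hspa5, the HSP70 of the endoplasmic reticulum, rose by 1.37, and Hspe1, the small partner of the mitochondrial chaperonin, fell by 1.36.

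**Figure D3:**
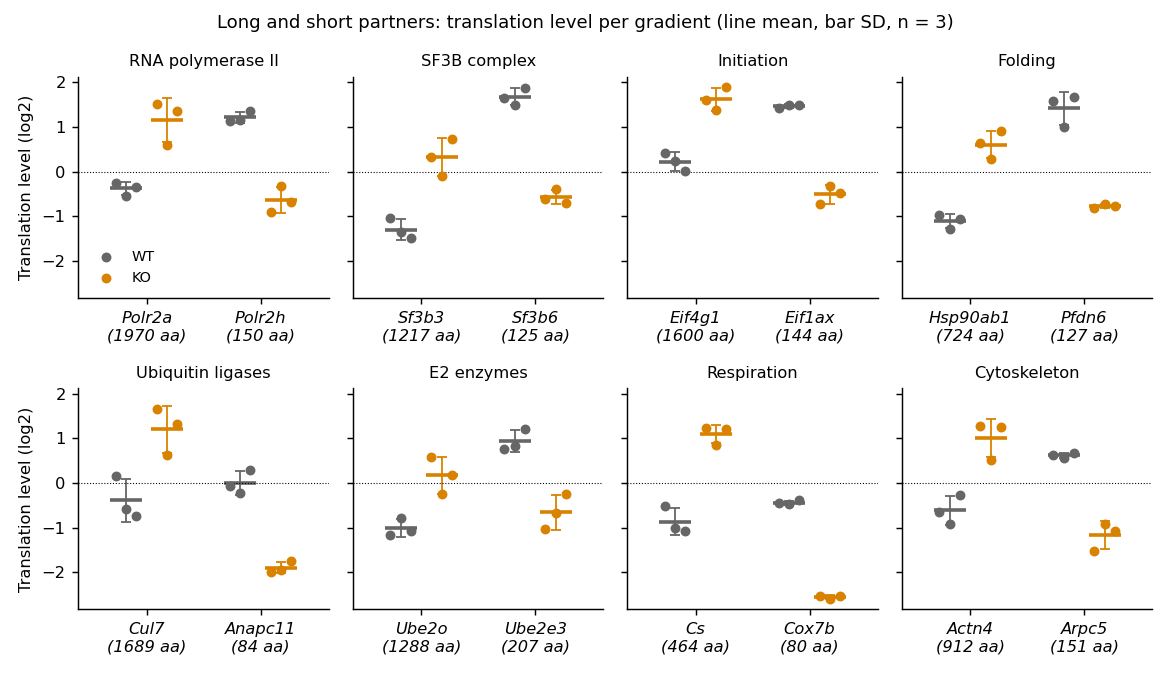
Translation level (y axis, log2 high polysome to monosome ratio) of a gene called higher and a gene called lower from each of 8 pathways, per gradient, in WT (grey) and Dgcr8 KO (orange); lines are means and bars SD (n = 3), and aa gives the protein length. In each panel the left gene lies higher in every KO gradient than in every WT gradient and the right gene lower, as for Polr2a (change 1.54) and Polr2h (-1.85).

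In the nucleus, histones and small splicing proteins lost translation level while remodelling enzymes gained. Of 11 replication-independent histone variants, 8 (72.7%) were called lower, none higher, and of 32 replication-dependent histones 16 and none. Their counts are uncertain, as histone genes have close copies, and most replication-dependent histone messages carry no poly(A) tail, which the library method primes on. H2afz, the H2A variant at promoters, had translation levels of 0.57, 0.57 and 0.15 in WT and -1.69, -1.38 and -0.79 in KO gradients (change -1.72, SE 0.28, adjusted p = 1.04e-05). All 7 linker histones tested were called lower, including H1fx by 1.75. Of 25 Sm, LSm and U snRNP proteins, which form the cores of the splicing particles, 12 (48.0%) were called lower, none higher (WT medians -0.17, -0.27 and -0.29, KO medians -1.41, -1.39 and -1.50). Snrpd3 (ENSMUSG00000020180, chromosome 10, 75517551 to 75537381, plus strand), a member of the Sm ring, went from 2.01, 1.71 and 2.15 to -0.33, 0.24 and -0.27 (change -2.08, SE 0.16, adjusted p = 1.92e-12).

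The list of large spliceosome proteins, which also holds the small Sf3b6, had 4 called higher and 2 lower of 32. Both directions occurred within the SF3B complex, which recognises the branch point. Sf3b3, of 1217 residues, rose from -1.05, -1.36 and -1.49 to 0.33, -0.10 and 0.74 (change 1.64, SE 0.20, adjusted p = 6.21e-08). Sf3b6, of 125 residues, fell from 1.66, 1.49 and 1.88 to -0.61, -0.38 and -0.70 (change -2.24, SE 0.19, adjusted p = 3.64e-11). These subunits of the same complex were thus called in opposite directions. In RNA polymerase II, the largest subunit Polr2a rose by 1.54, from -0.25, -0.54 and -0.34 to 1.52, 0.60 and 1.35 (SE 0.22, adjusted p = 8.28e-07), and 7 of the 12 subunits tested were called lower. Polr2h went from 1.13, 1.15 and 1.35 to -0.90, -0.32 and -0.69 (change -1.85, SE 0.26, adjusted p = 8.67e-07). In Mediator, which links transcription factors to the polymerase, 4 members were called higher and 5 lower of 33, among the latter Med10 by 1.59.

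Chromatin remodelling proteins had 7 of 42 called higher and none lower, with medians of 0.45, 0.52 and 0.48 in WT and 0.73, 0.79 and 0.95 in KO gradients. Smarcc2 (ENSMUSG00000025369, chromosome 10, 128459248 to 128490482, plus strand), a core subunit of the BAF complex that holds the second site printed above, stood at -1.26, -0.96 and -1.49 in WT and 0.31, 0.33 and 0.37 in KO gradients (change 1.58, SE 0.19, adjusted p = 3.22e-08). Chd8, a helicase of the CHD family, rose from at most 0.83 in WT to at least 1.82 in KO gradients, and Arid1a, the DNA-binding subunit of BAF, rose by 1.28. Histone lysine methyltransferases had 4 of 38 called higher, none lower, and demethylases 1 of 25, none lower. Dnmt1, the maintenance DNA methyltransferase, rose by 1.29 and Trim28, which silences retroelements with zinc finger proteins, by 1.34. The 279 zinc finger genes with a Zfp symbol had 10 called higher and 17 lower, 3.58% and 6.09%, both below the shares among all genes. Of these, Zfp706, a protein of 76 residues, fell by 2.01.

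Small GTPases, molecular switches at membranes, were called lower in part. Of 68 RAB and ARF GTPases, which direct vesicles, 16 (23.5%) were called lower and none higher, with medians of 0.56, 0.48 and 0.66 in WT and -0.37, -0.07 and -0.40 in KO gradients. Outside that list, Rras2, a RAS relative, had translation levels of 1.41, 1.95 and 2.20 in WT and -0.16, -0.03 and 0.15 in KO gradients (change -1.86, SE 0.25, adjusted p = 3.85e-07). Rap2b fell by 1.63, Ralb by 1.27, Rab4a, of early endosomes, by 1.51 and Rab21, which moves integrins, by 1.48.

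In the cytoskeleton, filamins, spectrins and other large linkers had 11 of 34 called higher and none lower, with medians of 0.54, 0.39 and 0.46 in WT and 1.28, 1.12 and 1.18 in KO gradients. Actn4, an actinin that crosslinks actin, rose from -0.66, -0.93 and -0.26 to 1.26, 0.52 and 1.24 (change 1.63, SE 0.21, adjusted p = 1.53e-07), and Flna, filamin A, by 1.48. The list of actins, tubulins and their small regulators was mixed, with 6 of 43 called higher and 6 lower. Of 9 subunits of the ARP2/3 complex, which branches actin filaments, 1 was called higher and 2 lower (median 0.26), among the latter Arpc5 by 1.79. Pfn1, profilin, fell by 1.53. Alpha and beta tubulins had 5 of 12 called higher and none lower, with Tubb5 going from -0.80, -1.19 and -0.84 to 0.77, 0.49 and 0.87 (change 1.65, SE 0.19, adjusted p = 9.74e-09). Tubulins have close copies, so their separate values are uncertain. Dynll2 and Dynlrb1, light chains of dynein, fell by 1.98 and 1.84.

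Signalling and cell fate lists were mixed. In the NODAL and BMP list, 2 of 28 were called higher and 2 lower, 7.14% each, beside 6.29% and 8.81% among all genes. Lefty1 (ENSMUSG00000038793, chromosome 1, 180935022 to 180938400, plus strand), a secreted inhibitor of NODAL with the third site printed above, had translation levels of 0.80, 0.63 and 1.02 in WT and 2.56, 2.64 and 2.56 in KO gradients (change 1.78, SE 0.25, adjusted p = 8.81e-07). The message was also more abundant in KO cells, at 79.9 ± 14.6 against 764 ± 154 CPM in monosomes (log2 change 3.23) and 140 ± 7.17 against 4594 ± 928 CPM in high polysomes (log2 change 5.02). Lefty2, its relative, rose by 1.11. Id2 and Id3, inhibitors of differentiation induced by BMP, fell by 1.90 and 1.48. Id2 went from 42.1 ± 0.671 to 205 ± 16.6 CPM in monosomes, beside high polysome levels of 42.6 ± 5.64 and 54.7 ± 5.02 CPM.

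In the list of the FGF to ERK pathway, 5 of 32 were called lower and none higher. Grb2, the adaptor that links receptors to RAS, had 1.89, 1.76 and 2.28 in WT and 0.30, 0.65 and 0.84 in KO gradients (change -1.33, SE 0.24, adjusted p = 3.66e-05). Spry2, a feedback inhibitor of the pathway, fell by 1.56. Apoptosis genes had 6 of 29 called lower and 1 higher. Those that fell hold both sides of the decision, Bcl2l1, which protects from death, by 1.35, and Diablo, which promotes it, by 1.22, while the caspase Casp2 rose by 1.40. Of 23 naive pluripotency factors, 2 were called higher, the LIF pathway genes Il6st by 1.23 and Stat3 by 1.11, and 3 lower, among them Dppa5a by 1.57. Pou5f1, also called lower by 1.77, has near-identical pseudogenes and its counts are uncertain.

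Of 7 genes for proteins that carry out microRNA silencing, 1 was called higher and none lower, beside 6.29% and 8.81% among all genes. All 7 Argonaute and TNRC6 genes tested had values above 0, from 0.09 to 1.05, and 5 were past the adjusted p. The scaffold Tnrc6a was called higher (change 1.05, SE 0.22, adjusted p = 0.000334), with -0.27, -0.01 and 0.30 in WT and 0.90, 1.12 and 1.13 in KO gradients, and fell under the fold threshold (0.91) without WT gradient 1. Ago2, the Argonaute that can slice RNA, had a change of 0.88 (SE 0.19, adjusted p = 0.00038), under the fold threshold. A seed site was present in 4 of the 7 genes. In deadenylation and decapping, 2 of 37 members (5.41%) were called lower and none higher, both below the shares among all genes. One is Btg1, a recruiter of the deadenylase, which holds the last site printed above and fell from -0.75, -0.62 and -0.71 to -1.85, -1.67 and -1.82 (change -1.09, SE 0.28, adjusted p = 0.00308).

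Changes in translation level can come from either fraction, and the lists differed in which one moved. Over all genes called higher, the median KO to WT change was 1.17 in high polysomes and -0.16 in monosomes, and over those called lower -1.27 and 0.10. The 12 receptor tyrosine kinases and phosphatases called higher had medians of 1.71 in high polysomes and -0.11 in monosomes, and the 28 solute carriers 1.49 and 0.18. Elongation factors were the reverse, with medians of 0.10 in high polysomes and -1.56 in monosomes, and all 5 were called lower within monosomes. Eef2 went from 6648 ± 464 CPM in WT monosomes to 2256 ± 103 in KO monosomes, while its high polysome levels were 868 ± 128 and 950 ± 174 CPM. Members called higher among actins and tubulins (0.26 and -1.20), initiation factors (0.18 and -1.06) and glycolytic enzymes (0.63 and -0.85) had the same order. Those called lower differed, with -0.94 in high polysomes and 0.19 in monosomes for actins and tubulins and -1.50 and 0.10 for initiation factors. Among mitochondrial ribosomal proteins called lower, 22 of 23 were also called lower within high polysomes and none was called within monosomes.

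**Figure D4:**
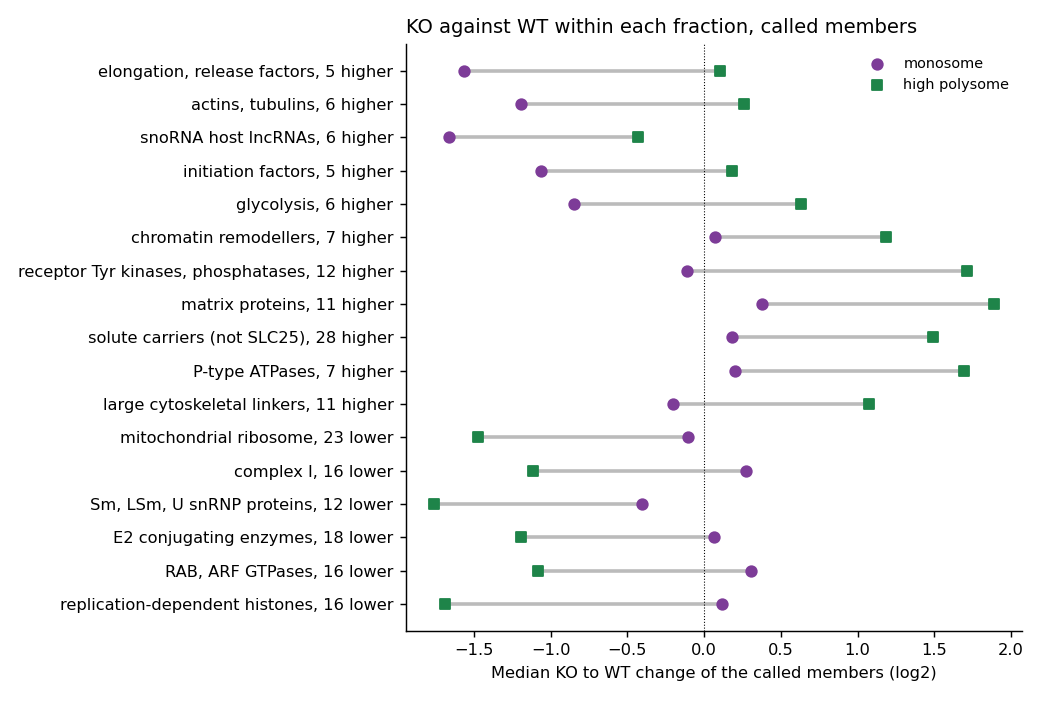
Median KO to WT change (x axis, log2) of the called members of 17 lists within monosomes (purple circles) and within high polysomes (green squares); each row gives the number of members and their direction. Receptor kinases, matrix proteins and carriers called higher lie apart in high polysomes (1.71, 1.89 and 1.49), whereas elongation factors called higher lie apart in monosomes (-1.56).

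Messages were also placed by side within each genotype. Of all genes called higher, 430 stood on neither side in WT cells and on the high polysome side in KO cells, that is with a translation level over 1 at an adjusted p under 0.05. Of those called lower, 546 moved from neither side to the monosome side. Of the rest, 6 went from the high polysome to the monosome side and 2 the other way.

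The lists differed in the length of the proteins they encode, and the calls differed by length over all protein-coding genes. Of 1348 genes for proteins of 101 to 200 residues, 0.297% were called higher and 36.1% lower (median change -0.87). Of 1926 genes for 801 to 1600 residues, 15.1% were called higher and 0.571% lower (median 0.54). In the short class the medians were -0.26, -0.32 and -0.26 in WT and -1.17, -1.08 and -1.20 in KO gradients, and in the long class 0.03, 0.10 and 0.04 in WT and 0.51, 0.39 and 0.62 in KO gradients. Neither class overlapped between genotypes. Coding length goes with other message features, and their part in the result was not tested.

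Each list was also described by its distance from the trend of the change on coding length, a smoothed curve over all protein-coding genes. Mitochondrial ribosomal proteins lay at a median of -0.06 from the curve, complex IV at 0.03 and the large spliceosome list at 0.05, which are values near it. Remodelling proteins, at -0.04, and histone lysine methyltransferases, at -0.06, also lay near the curve. Matrix proteins stayed above the curve, at 0.60, as did glycolytic enzymes at 0.60, receptor tyrosine kinases and phosphatases at 0.53 and solute carriers at 0.31. Cytosolic ribosomal proteins also lay above, at 0.93 for the large and 1.05 for the small subunit. Below the curve were histone variants at -0.63, Zfp genes at -0.36 and E2 enzymes at -0.35.

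**Figure D5:**
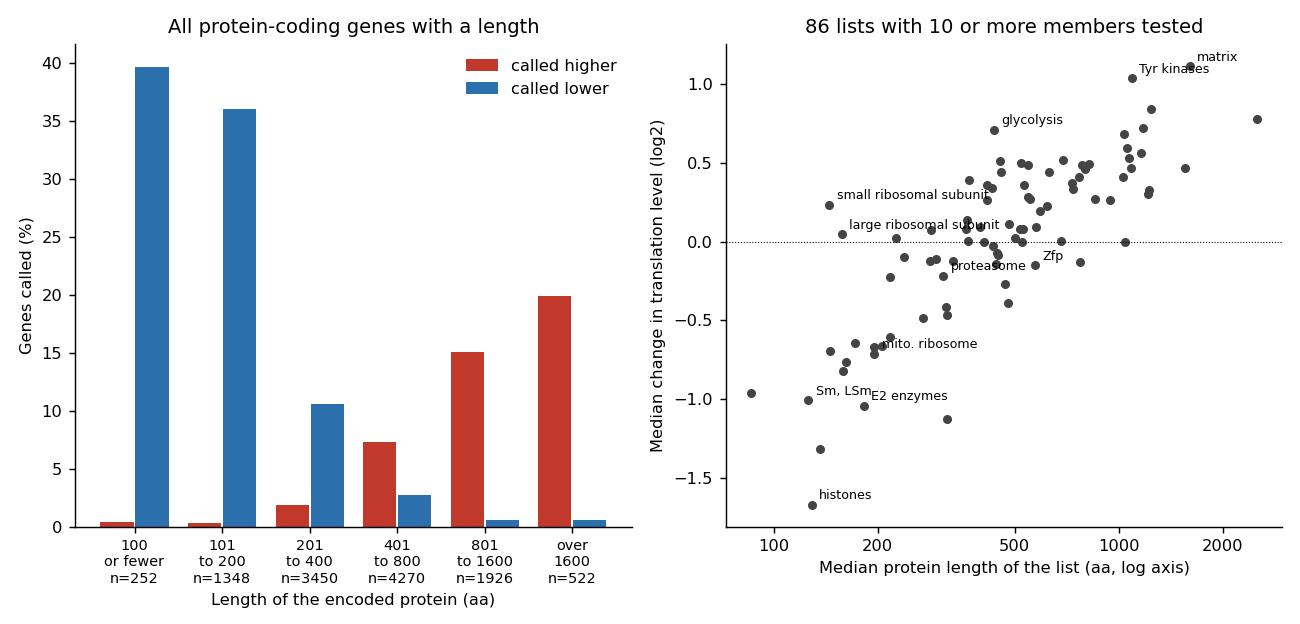
Left, share of protein-coding genes called higher (red) or lower (blue) in translation level in Dgcr8 KO ESCs, by length of the encoded protein in residues (aa). Right, median change of each of 86 lists (y axis, log2) against the median protein length of its members (x axis, log scale); short-protein lists such as complex IV (-0.96) lie low and matrix proteins (1.11) high, with ribosomal subunits above other lists of their length.

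Seed sites were spread over lists of both directions. A site was present in 18.7% of solute carriers, 15.6% of mitochondrial ribosomal proteins, 26.7% of E2 enzymes, 23.8% of remodelling proteins and 6.52% of complex I genes, against 18.7% of all protein-coding genes. Over all protein-coding genes, the median change was 0.13 with a site and -0.03 without, and of the genes with a site 194 were called higher and 139 lower. Within single lists the size and direction of this difference varied, with no test made. The median change with and without a site was 1.36 and 0.52 for integrins and cadherins (6 of 30 with a site). It was 0.60 and -0.08 for the NODAL and BMP list (6 of 28). G1 to S inhibitors and other genes listed as targets of this seed had 0.33 and -0.41 (24 of 29). Solute carriers had 0.58 and 0.45, E2 enzymes -0.98 and -1.04 and remodelling proteins 0.49 and 0.45. In other lists the median was lower with a site. The WNT list had 0.22 and 0.63 (10 of 32) and the FGF to ERK list -0.48 and 0.09 (8 of 32). Histone demethylases had 0.25 and 0.73 (6 of 25). Annotated 3′ UTRs differed in length between the lists, with a median of 146.5 bases in complex I and 1678 bases in the receptor kinases and phosphatases.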

How the data were processed

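RNA from monosome, low polysome and high polysome fractions of WT and Dgcr8 KO mouse ESCs was made into 3′ QuantSeq libraries, 18 in all. The authors trimmed reads with Cutadapt 1.14, aligned them to mm10 with STAR 2.5.3a keeping unique reads, and deposited raw read counts per gene from featureCounts 1.5.3 over GENCODE M14 without ribosomal RNA and with 92 spike-in entries, which held 0.00052% to 0.00215% of reads. No molecular identifiers are mentioned, so reads are not independent molecules. Symbols, coordinates and 3′ UTRs came from GENCODE M21 on GRCm38 (51274 of 51467 IDs matched), and microRNAs from RefSeq.

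The fit took genes that reached 3 CPM in 3 or more libraries and was made with limma 3.58.1 (voom, TMM factors, means of 6 groups, no block) in R 4.3.3, and p-values were adjusted over all 12851 genes. The low polysome libraries entered only the filter and the estimate of the spread. The limma interaction test and the filter follow the study's methods, and the fold threshold is the study's for another comparison. Translation levels per gradient are log2 ratios of scaled CPM with a prior count of 2, taking the library number as the gradient number. Same-numbered libraries of WT and KO cells deviated together little (Pearson r of 0.00018 to 0.102 over genes). For the high polysome and monosome libraries of the same number and genotype, r was 0.033 to 0.107.

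The members and lists were chosen with earlier results of these data known, and lists are described by counts and medians, with no test. Named genes were, per list, up to 3 called in each direction with the largest changes, a mean count of 50 or more and no overlap between genotypes, or the most abundant 2 where fewer than 2 qualified, plus ranks 6 to 20 per direction over all coding genes and 5 noncoding genes per direction. Among them, those called in every fit without a gradient were preferred (100 of 104 called genes named). Families within lists, Glipr2 and the pairs in the plot of partners were picked after their values were seen. Some genes and lists within the rule are not reported here. Alternatives were edgeR 4.0.16, DESeq2 1.42.0, limma-trend, other scalings, filters, blocks and left-out gradients. On simulated counts for 12589 genes, 200 genes with a mean count of 50 or more were changed. Of the changes of 3 or 4 times, 97% were past the adjusted p, with no fold threshold applied. Recovery in genes with lower counts was not simulated. Of the unchanged genes, 0.0242% were called at the adjusted p and the fold threshold.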

Additional observations from a re-analysis of the deposited data

Results flagged for a closer look

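The genotypes lay on opposite sides of the gradient, each with a translation level beyond 1 at an adjusted p under 0.05 in limma, in 8 called genes, of which 3 averaged at least 50 reads per library and are given here. Pclaf, which binds PCNA at replication forks, had translation levels of 0.88, 1.16 and 1.39 in WT and -1.12, -0.76 and -1.24 in KO gradients (change -2.20, SE 0.31, adjusted p = 5.95e-07). Glipr2, a protein of Golgi membranes, changed by -2.06 (SE 0.32, adjusted p = 3.25e-06). Gm9800, annotated as a processed pseudogene, changed by -2.23, from 1.20, 1.38 and 0.79 to -1.31, -0.79 and -1.18, and counts of pseudogenes with close copies are uncertain.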

How the results depend on the processing

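The main fit called 1940 genes changed, 808 higher and 1132 lower. Library totals in place of TMM factors gave 282 higher and 2070 lower, so that 282 of 2352 calls were higher in place of 808 of 1940, and the adjusted p alone gave 3621 changed, 1671 higher and 1950 lower. Leaving out 1 gradient at a time gave 1626 to 2054 changed, 624 to 935 higher and 985 to 1119 lower. Other scalings, tools and filters stayed within 1.5 times each count, and in no fit was a gene called in the opposite direction. With no filter, 25635 genes were tested and 34 of the 93 list medians moved by more than the spread between gradients. Removing the trend on coding length moved 58 list medians. It also moved the values of 89 named genes and left 14 the same. Over all fits other than this removal, 22 lists changed the sign of their median relative to all genes. Removing the trend changed the sign in lists outside these 22, such as complex IV (-0.97 to 0.03) and remodelling proteins (0.46 to -0.03). Of 106 genes named, 20 lost their call with library totals, all of them called higher. Library totals shifted the list medians by between -0.32 and -0.34, and the cause of the lost calls was not tested. Differences in genes under 3 CPM were not examined at this depth.

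The replicate numbers were not shown to pair the libraries. With the gradient as a replicate block, 2000 genes were called, 861 higher and 1139 lower, and with the replicate number over both genotypes as a replicate block 2023, with 870 higher and 1153 lower.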

Other observations

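Genes around DNA replication and stress were also described. Of 48 replication genes, 4 (8.33%) were called higher and 5 (10.4%) lower, near the 6.29% and 8.81% among all genes. All 4 GINS subunits, which join the MCM helicase at the fork, were past the adjusted p on the lower side and 2 were called, Gins1 (change -1.44) and Gins4 (change -1.24). The helicase subunits MCM2 to MCM7 had 5 of 6 past the adjusted p on the higher side, and Mcm3 was called (change 1.08), though not without WT gradient 3 (0.96), KO gradient 1 (0.97) or KO gradient 3 (0.96). Of 42 centromere and kinetochore proteins, 5 (11.9%) were called lower and 1 (2.38%) higher.

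Of 17 genes around ATF4, the transcription factor of the integrated stress response, 2 (11.8%) were called lower and none higher in limma. Among all genes, 8.81% were called lower and 6.29% higher. Atf4 had translation levels of 0.19, 0.02 and 0.03 in WT and between -2.44 and -1.86 in KO gradients (change -2.18, SE 0.16, adjusted p = 1.92e-12). The other was Ddit4, an inhibitor of mTOR signalling (change -1.21). In autophagy, 3 of 40 genes (7.5%) were called higher and 6 (15%) lower. Among the latter were Atg5 (change -1.92) and Gabarapl2 (change -1.58), which both act in building the autophagosome.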
